A study of Mus musculus with 2 samples.

Results

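The sites described here are the Lef1 peaks at Satb1 in mouse CD4+ T cells. Every listed peak that lay inside the body of Satb1 or within 200 kb of it was taken, which gave 4 of the 2052 peaks of the deposited list. Lef1 binding had been mapped by chromatin immunoprecipitation and sequencing (ChIP-seq), with the anti-Lef1 antibody clone C18A7. The wild-type sample was conventional CD4+ T cells (TCRb+, CD4+, CD25-, and GFP-negative per the design text) sorted from spleens of C57BL/6 mice of 8 to 10 weeks. The control was TCRb+, CD4+ T cells of CD4-Cre+ Lef1 fl/fl mice, also labelled C57BL/6, in which Cre driven by Cd4 regulatory sequence deletes floxed Lef1 in T cells; their age is not given in the sources used here. Both samples carry the tissue label naive CD4 T cells, although no marker of naive cells is named for the sort, and only the wild-type phenotype names a gate on CD25. Each sample was 1 library, and the control served only as the background of the peak call, so nothing below could be tested between samples. A peak list holds no expression, so the cell type could not be checked against its markers.

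Satb1 was selected on the number and the scores of its peaks, with earlier results of these data known. Positions, counts and scores are therefore given as a description, without a test.

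Lef1 belongs to the TCF/LEF family of factors, whose members bind DNA and recruit β-catenin or Groucho corepressors to chromatin. With its relative Tcf1 it is needed for T cell development. Satb1 encodes a nuclear protein that binds AT-rich DNA, helps to fold chromatin and recruits chromatin-modifying enzymes. It is abundant in thymocytes and naive T cells, where its loss disturbs the choice between CD4 and CD8 lineages and the formation of regulatory T cells.

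Satb1 lies on chromosome 17 from 51736187 to 51833290 (mm10, 97.1 kb) and is read from the minus strand, so that higher coordinates are upstream. The RefSeq start table (GRCm38.p6, the assembly that mm10 denotes) gives it 5 starts, at 51833290, 51832647, 51826588, 51812184 and 51812054. The windows of 300 bases around the starts at 51833290 and 51832647 are shown because a Lef1 peak lay in the gap between them, and that around 51812184 because it holds a TCF/LEF core word. Sequences are from RefSeq, on the strand of the gene, and run from 250 bases before a start to 50 bases from it onward. Capitals mark the 50 bases from the start onward in the windows of the starts at 51833290 and 51832647, and the core word in that of 51812184.
Start at 51833290, chr17:51833241-51833540, minus strand: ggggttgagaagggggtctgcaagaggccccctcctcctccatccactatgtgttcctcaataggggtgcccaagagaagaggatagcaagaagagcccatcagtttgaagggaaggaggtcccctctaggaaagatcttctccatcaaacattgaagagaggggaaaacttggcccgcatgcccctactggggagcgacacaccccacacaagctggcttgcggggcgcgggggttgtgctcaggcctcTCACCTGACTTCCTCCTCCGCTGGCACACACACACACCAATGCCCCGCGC
Start at 51832647, chr17:51832598-51832897, minus strand: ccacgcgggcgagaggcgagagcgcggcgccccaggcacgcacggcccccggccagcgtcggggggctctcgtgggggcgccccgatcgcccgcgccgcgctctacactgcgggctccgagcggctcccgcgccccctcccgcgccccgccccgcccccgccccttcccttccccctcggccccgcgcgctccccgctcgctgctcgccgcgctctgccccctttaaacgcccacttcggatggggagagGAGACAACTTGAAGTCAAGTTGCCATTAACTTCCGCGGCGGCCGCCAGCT
Start at 51812184, chr17:51812135-51812434, minus strand: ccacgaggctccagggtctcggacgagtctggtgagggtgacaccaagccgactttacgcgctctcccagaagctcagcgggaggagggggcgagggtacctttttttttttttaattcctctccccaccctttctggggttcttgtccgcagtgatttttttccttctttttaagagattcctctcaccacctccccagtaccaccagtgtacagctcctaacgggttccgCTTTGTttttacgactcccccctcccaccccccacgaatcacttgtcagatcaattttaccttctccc

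No listed peak overlapped any of the 5 windows. The peak nearest to one ended 5 bp below the low edge of the window of 51833290, on the side of its capitals, and lay 253 bp above the high edge of that of 51832647. The core words searched, CTTTGA and CTTTGT on either strand, were absent from the windows of 51833290, 51832647 and 51826588. The windows of 51812184 and 51812054 overlap and share 1 match, a CTTTGT that begins 18 bases before the start at 51812184 and 148 bases before that at 51812054. At least 1 core word was found in 31.2% of all 32851 start windows of the table. The 7-letter words CTTTGAA and CTTTGAT, each of which contains the core CTTTGA, were in none of the 5 windows and in 8.65% of all. Longer forms of CTTTGT were not searched, and the shared CTTTGT match is followed by a T. The window of 51832647 was 76.7% G and C and that of 51833290 was 59.0%, against a median of 52.7% over all windows. These are letters in windows beside the peaks: the sequence under the peaks of Satb1 was not used here.

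The 4 peaks were a strong site upstream of the gene and 3 weak ones. Scores are the authors' −log10 of the p-value of each peak. The strongest peak (chromosome 17, 51879334 to 51879541) was 208 bp wide and scored 16.36. Its near edge lay 46.0 kb upstream of the first start and of the body. Of the other peaks, 1 was further out, 1 was next to the first start and 1 was inside the gene, and all scored below 5.

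The outer upstream peak (51880646 to 51880703) was 58 bp wide and scored 4.25, 47.4 kb from the body. It was separated from the strongest peak by 1104 bp, and merging of peaks within 2 kb would count both as 1 site. The peak next to the first start (51833150 to 51833236) was 87 bp wide and scored 4.83. It covered the bases 54 to 140 bp downstream of the start at 51833290 and 503 to 589 bp upstream of that at 51832647, and so sat between the 2 outermost starts. The peak inside the gene (51800355 to 51800412) was again 58 bp wide with a score of 4.25. It lay 32.9 kb downstream of the first start and 11.6 kb downstream of the start at 51812054, so that all 5 starts were upstream of it. Exons were not used here, so the inner peaks are given only as inside the body.

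**Figure D1:**
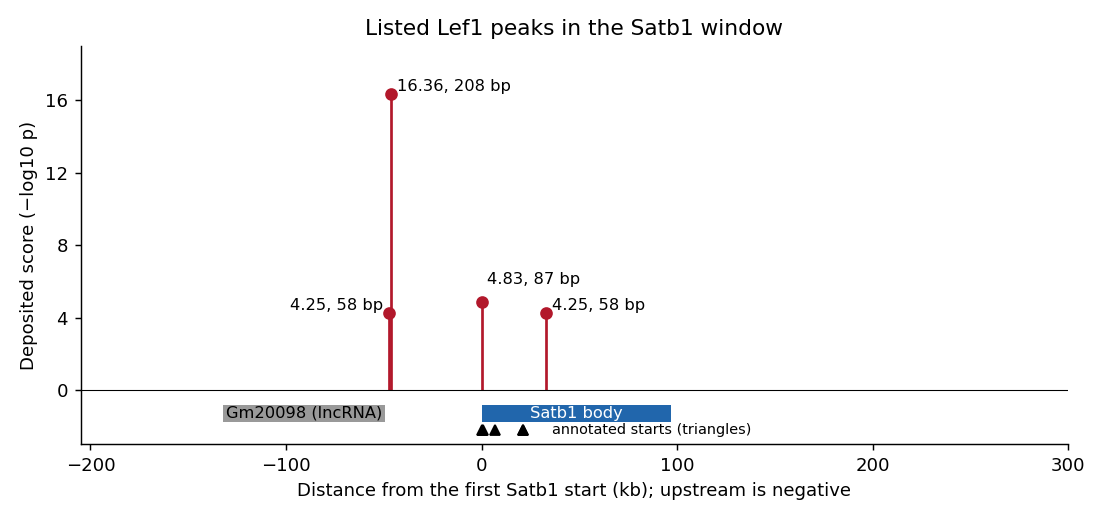
Deposited score (−log10 p) of the 4 listed Lef1 peaks in the Satb1 window, by distance in kb from the first start, with upstream negative and the width in bp beside each peak. The peak of 16.36 stands 46.0 kb upstream of the gene, with a peak of 4.25 beside it, and the peaks of 4.83 and 4.25 lie at the first start and inside the body.

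The strongest peak ranked 10 of 2052 by score over the whole list, 6 of 2018 among autosomal peaks and 1 of 100 on chromosome 17. It exceeded the next score at Satb1 by 11.5 units of −log10 p. The peak at the first start scored higher than 71.9% of the list, and 23 listed peaks, itself included, had exactly its score. The 2 peaks of 58 bp shared their score of 4.25 with each other and with 200 more, 202 in all, and only 13.6% of the list scored lower. The median of the list was 4.40 and its lowest score 4.01, so that these 2 peaks stood just above the lower end of what was listed.

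Widths followed the same order. The strongest peak was wider than 90.0% of the list, and the peaks of 58 bp were wider than 10.8%, against a median of 79 bp and a minimum of 55 bp. For its score the strongest peak was of middling width. Among the 97 peaks with a score of at least 8, whose widths ran from 57 to 631 bp with a median of 213 bp, 51 were wider and 44 narrower. Among the 10 autosomal peaks of highest score 3 were narrower, and these 10 had a median of 283 bp. The 4 peaks together covered 411 bp.

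**Figure D2:**
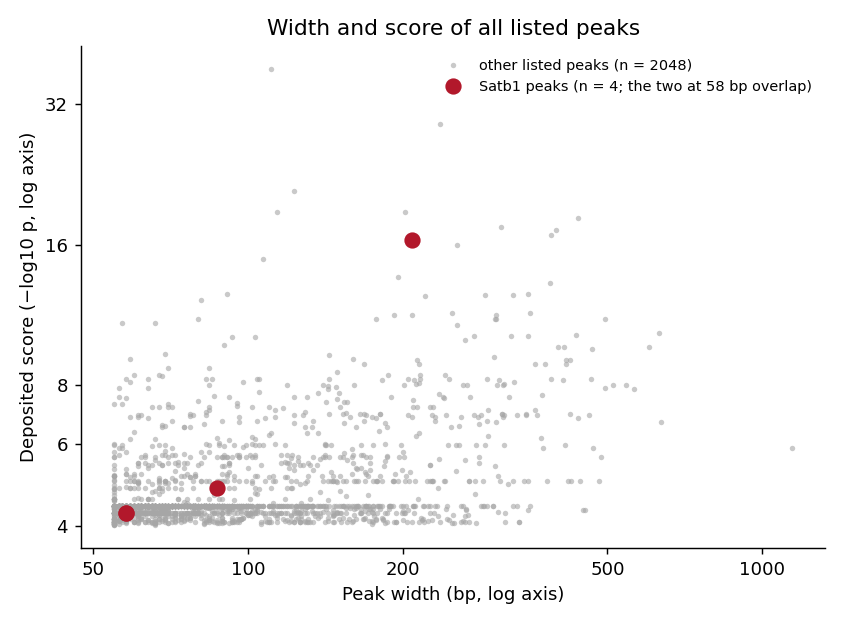
Width in bp against deposited score (−log10 p) for all 2052 listed peaks on log axes, with the 4 Satb1 peaks in red. The strongest, 208 bp and 16.36, lies in the sparse upper part, and the other 3 lie in the dense band of narrow peaks with scores under 5.

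Of the 97 peaks with a score of at least 8, 52 lay outside every protein-coding body and 28 were at least as far from one as the strongest Satb1 peak. Another listed peak lay within 1104 bp of 21 of the 97 (21.6%). These 97 include peaks on chromosome Y. The same shares over all 2052 listed peaks are not given here, so these counts do not set peaks of high score apart. The place of the weak peak at the first start was a frequent one. Of 1977 peaks on the chromosomes in the start table, 427 (21.6%) lay within 1 kb of an annotated start. Their median score was 4.40 and their median width 93 bp, and 33.3% of them scored higher than the one at Satb1.

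The peaks of Satb1 stood by themselves on the chromosome. From the first to the last base they spanned 80.3 kb. Gaps between neighbours were 32.7 kb inside the gene, 46.1 kb between the peak next to the first start and the strongest peak, and 1.10 kb between the upstream pair. The next listed peak on the low side (50631369 to 50631476, score 4.99) was 1.17 Mb away. On the high, upstream side the next one (56584589 to 56584677, score 4.09) was 4.70 Mb away. Measured from the gene body those distances were 1.10 and 4.75 Mb, so no peak lay near the 200 kb limit, and limits of 50, 100 and 500 kb gave the same 4 peaks. Gaps between neighbouring listed peaks on autosomes had a median of 612 kb. Of 1999 such gaps, 32.1% were at least as long as the one below Satb1 and 4.30% at least as long as the one above it.

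**Figure D3:**
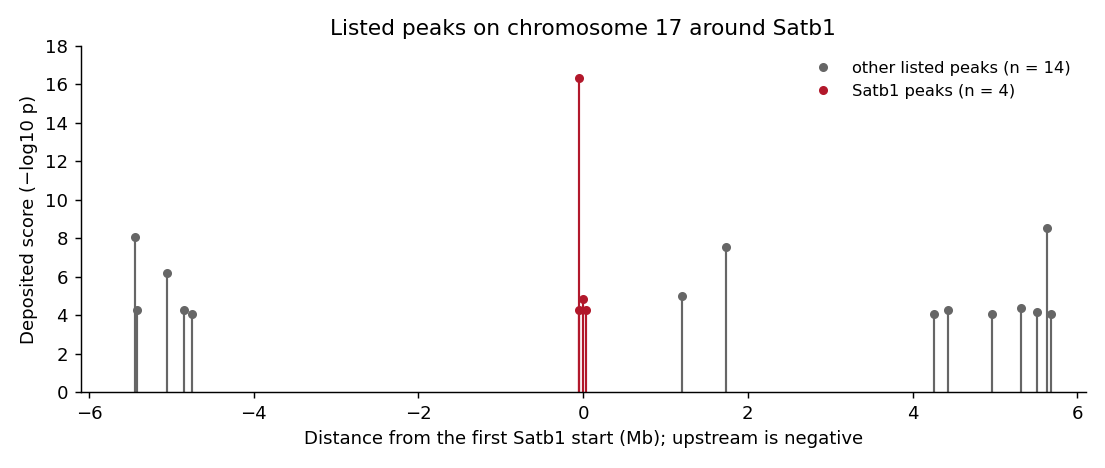
Deposited score (−log10 p) of every listed peak on chromosome 17 within 6 Mb of the first Satb1 start, by distance in Mb, with upstream negative. The 4 Satb1 peaks, in red, are separated by 4.70 Mb from the next listed peak upstream and by 1.17 Mb from the next one downstream.

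Few genes are annotated beside it. No other protein-coding body reached into the 200 kb window. The nearest were Tbc1d5, 555 kb downstream, and Kcnh8, 769 kb upstream, so that all 4 peaks had Satb1 as their nearest protein-coding gene. The nearest annotated neighbour of the upstream pair was the long non-coding RNA gene Gm20098 (51882727 to 51965257). Its near end was 2.02 kb from the outer peak and 3.19 kb from the strongest, and no listed peak lay inside it.

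The deposited names carry the numbers of a longer set of calls, which run from 26 to 33876, so that 6.06% of the numbers are listed. They rise along each of the 21 chromosomes. At Satb1 the listed numbers were 14329, 14332, 14333 and 14334, which is 4 of 6 consecutive numbers. The 2 that are not listed fall between the inside peak and the peak at the first start, and thus within the gene body. None fell between that peak and the upstream pair. Among stretches of 6 numbers that begin at a listed peak, 33 of 2052 (1.61%) held at least 4 listed peaks. The length of 6 and the limit of 4 were taken from Satb1 itself, so it meets them by construction. This share is therefore only a description. In the 4.70 Mb without a listed peak above Satb1 there were 55 unlisted numbers, and in the 1.17 Mb below it there were 5. The long gaps are therefore stretches without a listed peak, not without a call, and the scores of the unlisted calls were not used here.

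By the plain number of peaks Satb1 was high among genes but not extreme. Of 21887 protein-coding genes, 38.2% had at least 1 listed peak inside or within 200 kb of the body, 15.5% had 1 within 50 kb, and 1.16% had at least the 4 of Satb1 within 200 kb. These shares only place a gene that was chosen for its count. Within 200 kb 78 genes had more peaks, which gives rank 79, tied with 174 others, and the highest count was 10. Within 50 kb Satb1 ranked 4, tied with 24, and the highest count was 5. The same peak enters the counts of all genes whose windows hold it. When each peak went only to its nearest gene within 200 kb, 3 genes had more than Satb1 and 6 had as many.

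**Figure D4:**
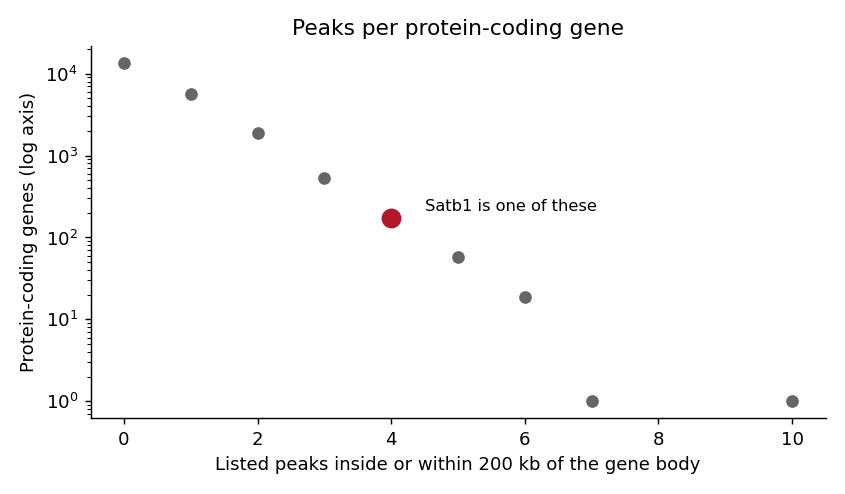
Number of protein-coding genes (log axis) by the number of listed peaks inside or within 200 kb of the body. Satb1 is in the red point, the 175 genes with 4 peaks, while 13523 genes had 0.

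The 9 other genes with at least 4 nearest peaks differed in how their peaks were placed. Peaks were not merged for this count. At all of the 9 except Lef1 and Sgms1 some peaks lay within 1 kb of each other, while the closest pair at Satb1 was 1104 bp apart. Arid1b, which encodes a subunit of the BAF chromatin remodelling complex, had 5, and Disc1, which encodes a scaffold protein, had 4. At both the highest peak lay outside the body, as at Satb1. At Arid1b it was upstream, and at Disc1 it lay beyond the high-coordinate end of the body, with the strand not given here. It scored 13.63 at 85.9 kb for Arid1b and 11.34 at 72.3 kb for Disc1. A weak neighbour stood beside it at both, 68 bp away with a score of 4.35 at Arid1b and 61 bp away with 4.25 at Disc1. Both genes also had 2 peaks inside the body. A highest peak outside the body with at least 1 lower peak inside it was also found at Prag1, Tcf7 and Lef1.

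At Prag1, which encodes a pseudokinase, the highest peak (8.01) was 66.1 kb outside and its nearest neighbour 17.9 kb from it. At Tcf7, which encodes Tcf1, the highest peak (6.68) was 30.7 kb outside and 637 bp wide. Lef1 itself had 6 peaks over 254 kb with a highest score of 7.65 at 4.07 kb. Part of Lef1 is deleted in the control cells, and where that part lies relative to these peaks was not used here. The 4 peaks of Il6st, which encodes the shared receptor chain gp130, lay within 3.06 kb, all outside the gene. As at Arid1b and Disc1, its highest peak (8.72) had a weak neighbour close by, 59 bp away with a score of 4.31. At Tmem267 the highest peak was inside the body, at 12.22. At Sgms1, a sphingomyelin synthase gene, 2 peaks shared the highest score of 4.40, 1 inside the body and 1 outside at 36.1 kb. The 10 peaks of the predicted gene LOC665918 on chromosome Y lay 26.7 to 150 kb from a body of 0.795 kb.

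A combination of features was looked for after the values had been seen: a peak within 1 kb of an annotated start, and a peak with a score of at least 8 that lay 10 to 200 kb upstream of the outermost start. It restates the layout seen at Satb1, so Satb1 meets it by construction, and the count is only a description. Of 168 protein-coding genes in the start table with at least 2 nearest peaks, 2 had both, Satb1 and Arid1b. Scores at the start were 4.83 and 4.25, and the upstream peaks were 46.0 and 86.6 kb from the outermost start. Chromosome 18 is not in the start table used here and was left out of this count.

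**Figure D5:**
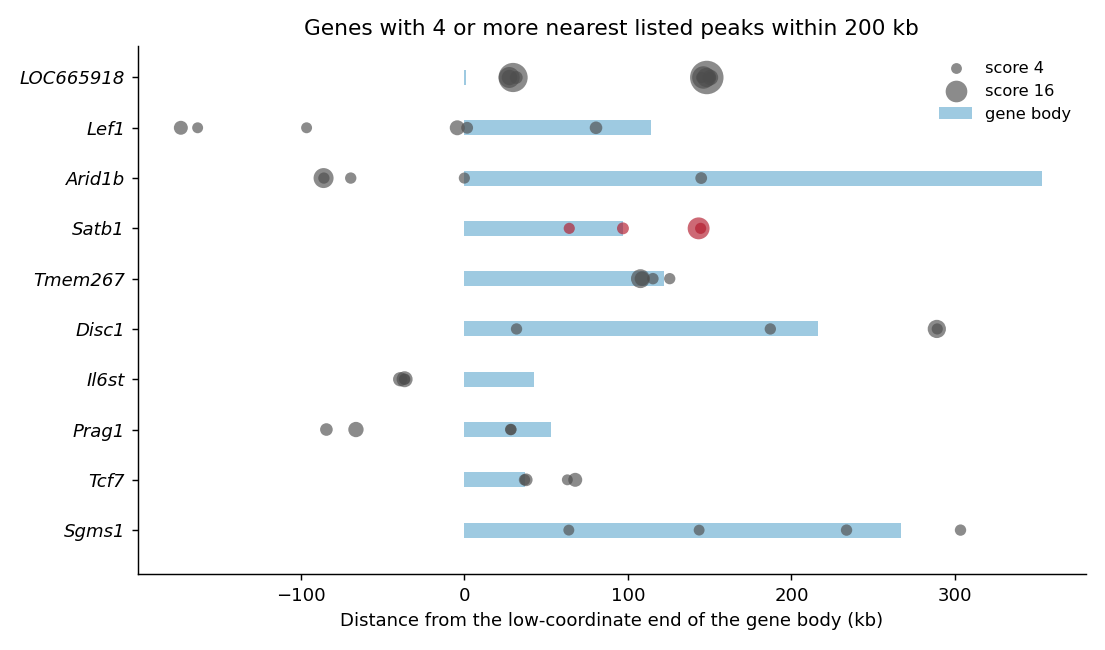
Listed peaks (points, area by deposited score) of the 10 protein-coding genes with at least 4 nearest peaks within 200 kb, by distance in kb from the low-coordinate end of each gene body (blue bars). At Satb1, Arid1b, Disc1, Prag1, Tcf7 and Lef1 the largest point lies outside the body, and at least 1 smaller point lies inside it. Measured from the nearest edge of the body, not along the axis, these largest points lie at 46.0, 85.9, 72.3, 66.1, 30.7 and 4.07 kb.

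Genes of genome architecture had a peak within 50 kb at 7 of 18 members (38.9%), against 15.5% of all protein-coding genes. Within the 200 kb window it was 11 of 18 (61.1%), against 38.2% of all. The median body of these 18 genes was 45.5 kb long against 17.2 kb for all genes, and a longer body makes a wider window. Apart from Tcf7, none of the 7 had a peak that scored above 4.40 within 50 kb. Hnrnpu, which encodes a nuclear matrix protein, had one of 4.25 inside the gene, and Ldb1, whose product joins distant enhancers to promoters, one of 4.06. Bcl11b, a T cell commitment factor gene, had one of 4.23 inside it. Yy1, which encodes a zinc finger factor found at loops, had 2 with a highest of 4.40 at 25.4 kb. Pds5a, a cohesin regulator gene, had one of 4.20 at 0.174 kb. That of Safb, which encodes a matrix attachment protein, was the peak of 4.09 that borders the long gap above Satb1, and it lay closer to Safb2. Arid3a, Ctcf, Matr3 and Nipbl had none within 50 kb. Within 200 kb Arid3a had 2 and Ctcf 1, while Matr3 and Nipbl had none.

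Among genes whose products are reported to act with SATB1, 6 of 15 (40.0%) had a peak within 50 kb, against 15.5% of all genes, with a median body of 39.5 kb against 17.2 kb. At 2 of the 6 with a peak within 50 kb the highest such peak had that gene as its nearest. Smarca4, the ATPase gene of the BAF complex, had one of 4.14 inside it, and Ctnnb1, which encodes β-catenin, had one of 4.25 at 37.2 kb. The highest peaks of Bptf (4.28), Hdac1 (4.67), Mta2 (6.53) and Pias1 (4.25) had another gene nearer to them. Baz1a, Chd4, Ctbp1 and Ep300 had none within 50 kb. Within 200 kb Baz1a had 2 and Chd4 1, while Ctbp1 and Ep300 had none. Of genes reported to depend on SATB1 in thymocytes and T cells, 4 of 22 (18.2%) had one, which is close to the 15.5% of all genes, with a median body of 15.1 kb. They were Lef1, Tcf7, Pdcd1 (5.41, at 2.71 kb), which encodes the checkpoint receptor PD-1, and Ctla4 (4.20, inside the gene). Bcl2, Bcl6, Cd4 and Cd8a had none within that distance. No member of the 3 lists had a peak with a score of 8 or more within 50 kb.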

How the data were processed

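Anti-Lef1 ChIP-seq libraries were made from sorted wild-type and Lef1-deficient CD4+ T cells, 1 of each. Per the submitters' processing notes FastQC, Bowtie2 2.3.4.1, MACS2 2.1.1 and mm10 were used; the sources used here give no parameters or filters. The deposited list holds peaks of the wild-type library called against the Lef1-deficient one, and per the file headers its score is the −log10 of the p-value. Read depth is unknown, and a score does not measure reproducibility.

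Starts were raised by 1, assuming the BED convention. Genes came from RefSeq GRCm38.p6 (21887 protein-coding genes) and starts from its 300-base windows. A peak belonged to a gene if any base lay inside the body or within 200 kb, and distances run from edge to edge. Nearest-gene ties went to the body with the nearest centre. Genes named beside Satb1 were those with at least as many nearest peaks, neighbours in the window, and members of 3 lists with a peak within 50 kb plus up to 4 without. Tcf7 is in 2 lists. Members and lists were chosen with earlier results of these data known. A further planned list is not reported here. No test was run. Counting was checked on simulated positions. Alternatives were other windows, centres, score limits, merging of neighbours, nearest-gene assignment and longer motif words; merging within 2 kb was added after the data were seen. Python 3.11.15 and pandas 2.3.3 were used.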

Additional observations from a re-analysis of the deposited data

How the results depend on the processing

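The count of 4 Lef1 peaks at Satb1 was the same with windows of 50, 100 and 500 kb, by peak centre, by nearest gene and with neighbours merged within 1 kb. It was 3 with neighbours within 2 kb merged, which was chosen after seeing the data, 2 with peaks above the median score and 1 with peaks of score at least 8. These score limits shorten the list by construction. The rank of Satb1 by count depended on the setting. It was 79 within 200 kb, 4 within 50 kb, 15 within 100 kb and 618 within 500 kb. With peaks above the median score it was 137, with merged neighbours 36 and with nearest-gene assignment 4. The upstream distance of the strongest peak was 46.0 kb from its edge and 46.1 kb from its centre. The longer motif words, which extend only CTTTGA and not CTTTGT, were in 8.65% of start windows, against 31.2% for the core words. No paired analysis was possible because there was a single library per genotype and no test was run, and there were no replicates to leave out. Depth is unknown, and a place without a listed peak is only one with no call that the authors listed.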

Other observations

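The list was also searched for bunches of peaks like that at Satb1, a choice made after the data were seen. When neighbours within 100 kb were chained, the 2052 peaks fell into 1674 groups, and 23 of these held at least 4 peaks. The limit of 4 was the count at Satb1. At 3 of the 23 the next listed peak was at least 1 Mb away on both sides. Satb1 meets these terms by construction, and its smaller gap, 1.17 Mb, is close to the limit. The 3 groups were that at Satb1, with a highest score of 16.36 over 80.3 kb, the group nearest to Il6st, with a highest score of 8.72 over 3.06 kb, and a group on chromosome Y nearest to the predicted gene Gm3376, with a highest score of 8.26 over 83.8 kb. The gaps around the group of Il6st were 2.38 and 1.30 Mb, and those around the group on Y were 3.82 and 7.70 Mb.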
